A study of Mus musculus with 12 samples.

Results

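The vascular endothelial growth factor (VEGF) and angiopoietin system was followed through 10 genes, chosen by name as its main ligands and receptors, of 45777 genes in the gene table. The 5 ligand genes were Vegfa, Vegfb, Vegfc, Pgf (placental growth factor) and Angpt2 (angiopoietin 2), and the 5 receptor genes were Flt1, Kdr, Flt4, Tek and Tie1. All 10 were found by symbol, and each gene's span on mm10 was the same as in the RefSeq annotation of GRCm38.p6.

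VEGF ligands are secreted proteins that bind receptor tyrosine kinases on endothelial cells. Vegfa acts mainly through Kdr (VEGF receptor 2) and is also bound by Flt1 (VEGF receptor 1), which signals weakly and, as a truncated secreted form, holds ligand away from Kdr. Pgf and Vegfb bind Flt1, and Vegfc binds Flt4 (VEGF receptor 3) and Kdr. Angiopoietin 1 activates Tek (Tie2), angiopoietin 2 acts on the same receptor as a context-dependent antagonist or agonist, and Tie1 is a related receptor that modulates Tek. In the liver, hepatocytes are a known source of Vegfa, and the sinusoidal endothelium carries Kdr, Flt4 and Tek.

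Polyadenylated RNA was sequenced from mouse Hepa1-6 cells, a hepatoma line, and from primary liver sinusoidal endothelial cells (LSECs), the fenestrated cells that line liver capillaries. Cells were cultured for 24 h at 2% serum, alone or together; a shared well of a 12-well plate held 500000 LSECs below and 100000 Hepa1-6 cells above, on a membrane insert (pore size 3 μm). The 4 groups of 3 libraries were Hepa1-6 alone, Hepa1-6 from the co-culture, LSECs alone and LSECs from the co-culture; co-culture titles name both cells, and the first named was taken as the one sequenced. No genetic change or drug is labelled in any group, the mice behind the primary cells are not described, and nothing says whether the libraries of a group came from separate cultures, so p-values measure the spread between these libraries, which may be technical.

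Total counts were 32761492 to 48870698 per library. Of 10 pan-endothelial markers, all 10 reached 1 CPM (a count scaled to its library's size) in both LSEC groups, with summed levels of 13200 to 14160 CPM alone and 13550 to 14260 CPM in co-culture. In Hepa1-6 libraries the sum was 112.4 to 131.8 CPM, and Cdh5, Cldn5, Emcn, Robo4 and Mmrn2 had no count. Albumin stood at 2042 CPM in Hepa1-6 cells alone and at 7.33 CPM in LSECs alone. It is 1 of 10 hepatocyte and hepatoma secretory markers, of which 6 reached 1 CPM in Hepa1-6 cells alone (summed 4244 to 4353 CPM), while Ahsg and Fga had no count. In LSECs alone 4 of them did (34.9 to 58.2 CPM). The LSEC libraries also held macrophage RNA: all 15 macrophage and Kupffer cell markers reached 1 CPM, and their sum was 2173 to 3383 CPM alone and 3470 to 4706 CPM in co-culture. Of 8 neutrophil markers, none reached 1 CPM in LSECs alone and 1 did in co-culture (summed 0.283 to 2.29 and 7.54 to 16.6 CPM), while T, NK and B cell markers summed to at most 4.28 CPM.

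Replicate 1 of the LSECs stood apart from replicates 2 and 3 in both conditions. It differed in marker sums, and in a way that broadly followed transcript length among the 10 genes. Its CPM over the mean of the other replicates, in LSECs alone, was 1.63 for Vegfb, whose longest transcript has 1282 bases, and 1.55 for Pgf with 2096 bases. The same ratio was 0.94 for Tie1 with 3879 bases, 0.52 for Kdr with 5921 bases and 0.59 for Flt1 with 6895 bases. Vegfa (3531 bases, 0.80) and Angpt2 (3560 bases, 0.82) broke the order by lying below the longer Tie1. Vegfc (1881 bases, 1.33) lay below the longer Pgf. In co-culture the ratios for Vegfb, Pgf, Tie1, Kdr and Flt1 were 1.55, 1.39, 0.96, 0.58 and 0.57. Macrophage and Kupffer cell markers summed to 3383, 2528 and 2173 CPM in replicates 1, 2 and 3 of LSECs alone. In co-culture they summed to 4706, 3635 and 3470 CPM. Sinusoidal endothelial markers summed to 4166, 5536 and 5651 CPM alone and to 5681, 7129 and 7287 CPM in co-culture, in the same order. The part of these differences in the results below was not tested. LSEC results are therefore given with replicate number as a block in the model, and calls also with replicates 2 and 3 only. Replicate 1 stood apart in both conditions, but replicates 2 and 3 were not shown to be matched by number.

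**Figure D1:**
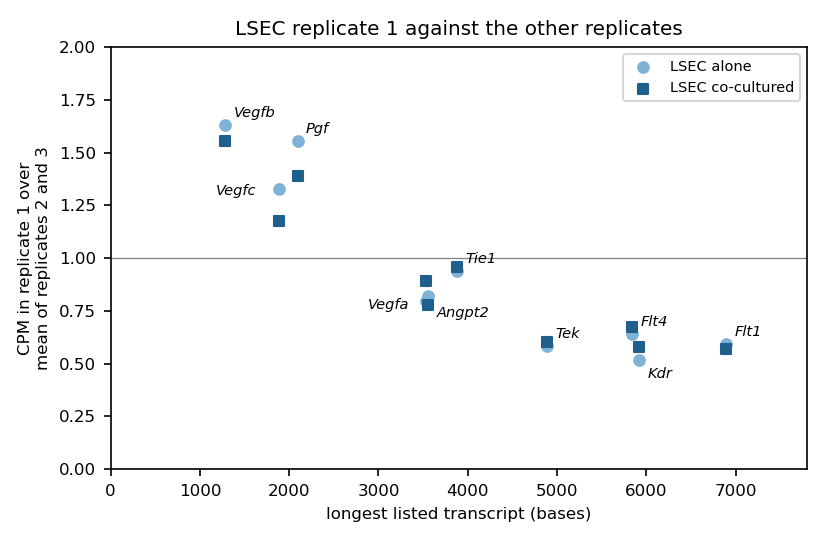
CPM in LSEC replicate 1 divided by the mean of replicates 2 and 3 (y axis) against the length in bases of the longest listed transcript (x axis), 1 point per gene for LSECs alone (circles) and in co-culture (squares). The short Vegfb, Vegfc and Pgf lie above 1 and the long Tek, Flt4, Kdr and Flt1 lie between 0.52 and 0.67.

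The transcript table lists 33 transcripts for the 10 genes. Those of Flt1 and Vegfa are shown first, since their isoforms decide whether the protein is a receptor or a soluble trap, and how tightly the ligand binds matrix. The full-length Flt1 transcript codes for 1333 codons in 30 exons, and the truncated one for 688 codons in 13 exons. They share 657 whole codons and then part, because the truncated transcript reads on into the intron. The last 30 shared coding bases are in lower case and the 30 that follow in each transcript are in capitals (GENCODE M21, GRCm38, minus strand; the full-length stretch spans an intron, chr5:147634494-147639254, and the truncated stretch is continuous, chr5:147639195-147639254).
Flt1 full-length: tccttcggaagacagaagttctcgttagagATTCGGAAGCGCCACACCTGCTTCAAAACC
Flt1 truncated: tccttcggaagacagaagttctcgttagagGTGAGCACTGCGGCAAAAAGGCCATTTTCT

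Vegfa transcripts differ by 2 optional coding blocks, which encode basic, heparin-binding segments. The shorter block of 72 bases (chr17:46022277-46022348, minus strand) is printed in capitals with 15 bases of the neighbouring exons on each side, and the longer block of 132 bases (chr17:46020991-46021122, minus strand) in capitals alone. The listed transcripts carry both, lack the shorter, or lack both.
Vegfa shorter block: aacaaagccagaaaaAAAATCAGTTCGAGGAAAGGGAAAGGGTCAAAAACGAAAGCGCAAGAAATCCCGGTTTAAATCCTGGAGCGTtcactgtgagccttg
Vegfa longer block: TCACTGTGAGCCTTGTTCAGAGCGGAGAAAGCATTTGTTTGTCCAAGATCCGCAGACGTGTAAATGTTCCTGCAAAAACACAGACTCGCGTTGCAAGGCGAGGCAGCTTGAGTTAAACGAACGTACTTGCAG

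Comparing the cells grown alone asked which cell carries which side of the system. Vegfa and Vegfc were higher in Hepa1-6 cells, and the other 8 genes were higher in LSECs. All 10 passed edgeR's quasi-likelihood test with Benjamini-Hochberg adjustment at 0.05, as did 70% of the 16411 genes tested (37.2% higher and 32.8% lower in LSECs), so the count says little by itself; the sizes carry the contrast. Library ranges did not overlap for any of the 10, against 77.8% of all genes tested. Kdr and Tek had no count in Hepa1-6 cells alone and Tie1 had 3. These genes entered the test only through the LSECs, so their calls and separate ranges were fixed in advance.

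Vegfa, the principal ligand of Kdr, lies at chr17:46016993-46032377. It stood at 45.2, 41.9 and 48.2 CPM in Hepa1-6 cells alone and at 17.6, 21.2 and 23.1 CPM in LSECs alone. Every Hepa1-6 library lay above every LSEC library, with a log2 fold change of LSECs over Hepa1-6 of -1.11 (SE 0.14, adjusted p = 0.000488). Vegfc, the lymphatic growth factor (chr8:54077532-54186454), was at 32.3, 34.0 and 31.7 CPM in Hepa1-6 cells and at 10.5, 7.98 and 7.86 CPM in LSECs. Its log2 fold change was -1.87 (SE 0.15, adjusted p = 7.52e-05, edgeR), again without overlap.

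Pgf and Vegfb, which bind Flt1 and not Kdr, were higher in LSECs. Pgf (chr12:85166637-85177785) had 0.521, 0.443 and 0.356 CPM in Hepa1-6 cells alone against 198, 132 and 122 CPM in LSECs alone, a log2 fold change of 8.44 (SE 0.31, adjusted p = 4.93e-06). Vegfb (chr19:6982472-6987651) was at 18.9, 17.5 and 18.7 CPM against 96.7, 62.9 and 55.9 CPM, a log2 fold change of 1.99 (SE 0.23, adjusted p = 0.00034). For both genes the highest LSEC value was replicate 1. Angpt2 (chr8:18690263-18741562), the ligand of Tek stored in endothelial granules, was at 3.90, 4.32 and 4.34 CPM in Hepa1-6 cells and at 1381, 1637 and 1725 CPM in LSECs. That is a log2 fold change of 8.58 (SE 0.18, adjusted p = 1.73e-06), with no overlap.

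Of the receptors, Kdr and Tek had no count in any Hepa1-6 library alone, and Tie1 had 3 counts in 1 of the 3. Kdr (chr5:75932827-75979072) stood at 529, 979 and 1063 CPM in LSECs alone, which is at least 32500-fold higher than a floor of 3 counts over the Hepa1-6 group. Tek (chr4:94739086-94874976) stood at 114, 189 and 201 CPM there, at least 6410-fold higher by the same floor. Tie1 (chr4:118471191-118489849) was at 484, 504 and 528 CPM, and the ratio to Hepa1-6 cells was 19800 with a 95% counting interval of 6790 to 96200. Copies made by PCR are not separate molecules, so these intervals and floors describe counting error alone.

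Flt1 and Flt4 were also measured in Hepa1-6 cells. Flt1 (chr5:147561604-147726438) had 1.98, 1.37 and 1.98 CPM there and 98.8, 161 and 173 CPM in LSECs, a log2 fold change of 6.36 (SE 0.32, adjusted p = 1.16e-05). Flt4 (chr11:49609679-49652739), the receptor of Vegfc, had 30.6, 26.4 and 27.5 CPM in Hepa1-6 cells. In LSECs it had 425, 657 and 672 CPM, a log2 fold change of 4.40 (SE 0.22, adjusted p = 1.27e-05). Hepa1-6 cells thus carried 1 VEGF receptor gene above 2 CPM. Of 5 lymphatic endothelial markers, only the transcription factor Prox1, which hepatocytes share, reached 1 CPM there (49.7 CPM), and Pdpn, Mmrn1 and Ccl21a had no count.

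**Figure D2:**
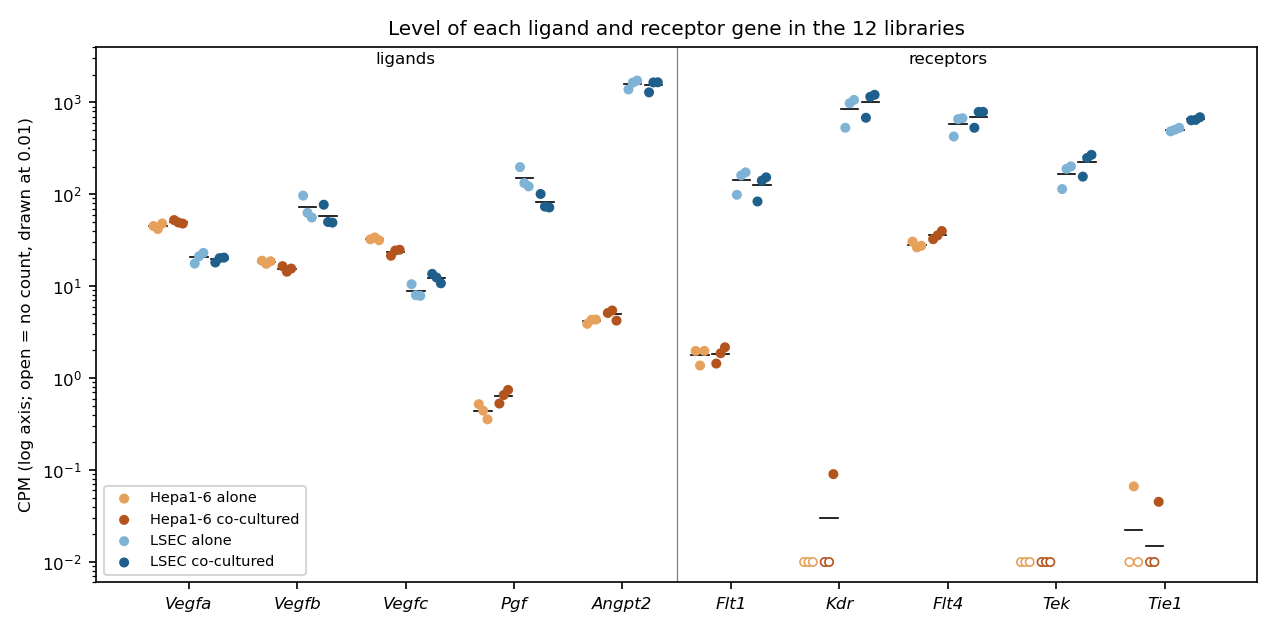
CPM of each gene (log axis) in every library, with a bar at the group mean; open points at the foot mark libraries with no count, drawn at 0.01. Kdr, Tek and Tie1 are at or near 0 in Hepa1-6 cells, and Angpt2 lies between 1284 and 1725 CPM in LSECs.

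Levels of different genes were compared on the TPM scale, which divides by transcript length. In LSECs alone the order was Angpt2 (947 ± 249 TPM, SD, n = 3), Kdr (316 ± 143), Tie1 (276 ± 55.0), Flt4 (216 ± 79.8), Pgf (188 ± 17.9), Vegfb (118 ± 14.7), Tek (76.6 ± 30.7), Flt1 (46.5 ± 18.8), Vegfa (13.0 ± 3.74) and Vegfc (9.64 ± 0.0752). Library ranges of neighbours overlapped from Kdr to Pgf, between Tek and Flt1, and between Vegfa and Vegfc. Angpt2 ranked 163rd by TPM among 21622 genes with a value above 0. In Hepa1-6 cells alone the order was Vegfc (35.3 ± 1.03 TPM), Vegfb (29.99 ± 1.27), Vegfa (27.1 ± 2.07), Flt4 (9.81 ± 0.766) and Angpt2 (2.38 ± 0.144), followed by Flt1 and Pgf below 1 TPM; Vegfb and Vegfa overlapped.

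The related genes that were not among the 10 completed the picture of who carries what. Angpt1, the activating ligand of Tek, was at 19.6 ± 0.697 CPM in Hepa1-6 cells alone and at 0.0382 ± 0.0662 CPM (4 counts in all) in LSECs alone. Angpt4 had no count in any library, and Vegfd did not exceed a mean of 1.95 CPM in any group. The co-receptors Nrp1 and Nrp2 stood at 428 ± 92.6 and 1112 ± 396 CPM in LSECs alone and at 29.0 ± 2.15 and 38.7 ± 3.46 CPM in Hepa1-6 cells alone. Ptprb, the phosphatase that dampens Tek, stood at 906 ± 382 and 2.74 ± 0.083 CPM.

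The co-culture of Hepa1-6 cells with LSECs asked whether the tumour cells change their part of the system. Vegfc and Vegfb fell and Flt4 rose, each by less than 1.4-fold. These were 3 of 7 genes tested (edgeR, adjusted p under 0.05; Kdr, Tek and Tie1 were too low to test), against 15.5% of all 14796 genes tested, with 8.5% called higher and 7.03% lower. With the replicate block the same number passed, against 17.1%, and limma on log2(TPM + 1) called 1, against 8.45%. Library ranges were apart for 4 of the 7, against 30.7% of all genes. The median log2 fold change of the 7 was 0.14, and that of all genes was -0.004.

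Vegfc stood at 21.4, 24.5 and 24.9 CPM in the 3 co-culture libraries, all below the 3 libraries of Hepa1-6 cells alone given above. It fell by 0.47 on the log2 scale (SE 0.06, adjusted p = 1.64e-05, edgeR), and the call held when any 1 of the 6 libraries was left out. Flt4, its receptor, stood at 32.5, 35.7 and 39.9 CPM, all above the libraries alone. It rose by 0.36 on the log2 scale (SE 0.07, adjusted p = 0.00125), also with any 1 library left out, and did not pass in limma on log2(TPM + 1) (adjusted p = 0.0647).

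Vegfb was at 16.5, 14.4 and 15.6 CPM, below every library alone, a log2 fold change of -0.25 (SE 0.07, adjusted p = 0.0256, edgeR). That call was lost without co-culture replicate 2 (adjusted p = 0.133) or 3 (0.0506), without replicate 1 (0.0954) or 3 (0.085) of the cells alone, and in limma on TPM (0.0634). Vegfa was at 52.4, 49.3 and 48.0 CPM, and 1 library alone (48.2 CPM) lay inside that range. Its log2 fold change of 0.14 (SE 0.05) missed the threshold (adjusted p = 0.0673) and passed without replicate 3 of either group (adjusted p = 0.0393 and 0.023).

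The other 3 tested genes were low in these cells and none passed. Angpt2 was at 5.12, 5.45 and 4.23 CPM in co-culture, a log2 fold change of 0.23 (SE 0.13, adjusted p = 0.28). Pgf was at 0.530, 0.656 and 0.746 CPM, all above the libraries alone, with a log2 fold change of 0.56 and an SE of 0.35 (adjusted p = 0.335). Flt1 was at 1.44, 1.87 and 2.17 CPM, with overlapping ranges and a log2 fold change of 0.05 (SE 0.22, adjusted p = 0.921). A p that misses the threshold does not show that levels were equal. Kdr had 4 counts in 1 co-culture library, Tie1 had 2 counts in 1, and Tek had none in any.

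The order of the ligands by TPM in Hepa1-6 cells therefore changed. Vegfc over Vegfa, as a ratio of TPM within a library, was 1.29, 1.46 and 1.18 alone and 0.747, 0.899 and 0.931 in co-culture, so that it was above 1 in every library alone and below 1 in every co-culture library. Vegfb over Vegfa was 1.13, 1.14 and 1.06 alone and 0.867, 0.791 and 0.876 in co-culture. These ratios were chosen with the gene values known, and 3 against 3 libraries cannot give an exact two-sided permutation p below 0.1.

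Lists of genes around the system were counted in Hepa1-6 cells, beside 8.5% of all genes called higher and 7.03% lower, and no list was tested as a set. Of 12 tested other ligands, receptors and co-receptors, 4 rose and 2 fell. The integrin subunits Itgb3 and Itgav, which bind vascular matrix, rose by 0.86 (SE 0.07, adjusted p = 5.51e-09) and 0.32 (SE 0.03, adjusted p = 2.32e-08) on the log2 scale. Nrp1 rose by 0.34 (SE 0.06, adjusted p = 0.000258). Angpt1 fell by 0.42 (SE 0.07, adjusted p = 0.000191), to 14.6 ± 0.451 CPM, while Angpt2, the other Tek ligand measured, did not pass.

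Of 12 tested genes of ligand processing and matrix binding, 6 rose and 1 fell. The heparan sulfate carrier Gpc1 rose by 0.62 (SE 0.03, adjusted p = 7.21e-13), and Pcsk6, a proprotein convertase, fell by 0.58 (SE 0.04, adjusted p = 8.49e-10). Of 19 tested hypoxia regulators and hypoxia-responsive genes, 10 rose and 1 fell. Bnip3 rose by 0.84 (SE 0.07, adjusted p = 1.15e-07), Ndrg1 by 0.48 (SE 0.05, adjusted p = 1.04e-07), and Epas1, the HIF subunit, by 0.46 (SE 0.06, adjusted p = 6.73e-06), while Vegfa itself did not pass. The median log2 fold change of the 19 was 0.15, beside -0.004 over all genes.

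Of 15 tested FOXO1 and Tie2 pathway genes, 6 rose and none fell, led by the insulin receptor substrate Irs2 (log2 fold change 1.19, SE 0.05, adjusted p = 7.21e-13). Of 28 tested signalling genes below the receptors, 7 rose and 1 fell, and of 12 trafficking genes and phosphatases, 5 rose. Of 15 tested genes known as VEGF targets in endothelium, 4 rose, among them the orphan receptor Nr4a1 (0.79, SE 0.07, adjusted p = 1.12e-07), and 2 fell, among them Pdgfb (-0.68, SE 0.07, adjusted p = 2.55e-07). Of 10 tested transcription factors of endothelial receptor genes, 3 rose, namely Elk3, Hhex and Ets1. All of these counts are from edgeR with adjustment over all genes.

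The co-culture of LSECs with Hepa1-6 cells asked the same of the endothelium. Without the replicate block, none of the 10 genes passed edgeR's test (2 had an unadjusted p under 0.05, Pgf and Tie1), against 3.09% of 15256 genes tested. In simulated counts this fit recovered 0% of 1.5-fold and 4.3% of 2-fold changes, so a miss here does not show equal levels. DESeq2 called Pgf (adjusted p = 0.0173) and Tie1 (adjusted p = 0.0138), with 8.53% of all genes called. In limma on log2(TPM + 1) 1 passed, Pgf, against 2.9%. With replicate number as a block, 8 of the 10 passed, 5 higher and 3 lower, against 33.3% of all genes, 16.7% higher and 16.6% lower. With replicates 2 and 3 only, 8 again passed, against 36.4%.

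Among the genes that passed with the block, the receptors Kdr, Flt4, Tek and Tie1 and the ligand Vegfc were higher in co-culture, and Pgf, Vegfb and Flt1 were lower. In each of these 8 genes, all 3 same-numbered pairs of libraries differed in that one direction. The block tests the difference within pairs, so that agreement largely follows from how the 8 were picked. The share of all genes with 3 agreeing pairs was not counted. In bulk RNA, fewer cells of a type and less RNA per cell cannot be told apart. Sinusoidal endothelial markers moved alongside: their sum was 4166 to 5651 CPM alone and 5681 to 7287 CPM in co-culture, and 9 of 10 were called higher with the block. Pan-endothelial markers were called higher in 4 and lower in 3 of 10. Of 15 macrophage and Kupffer cell markers, 3 were called higher and 2 lower without the block, and 7 higher and 5 lower with it; Adgre1 was at 119 ± 22.2 CPM alone and 529 ± 54.6 CPM in co-culture. The part of these shifts in the results was not tested.

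Pgf showed the largest difference of the 10 genes in size. It was at 101, 73.5 and 71.9 CPM in co-culture (replicates 1, 2 and 3), below all 3 libraries alone at 198, 132 and 122 CPM. Every pair fell in the same direction, with co-culture over alone at 0.510, 0.555 and 0.590. The log2 fold change was -0.92 (SE 0.26, adjusted p = 0.16) without the block and -0.90 (SE 0.06, adjusted p = 5.66e-06) with it.

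Tie1 was at 638, 644 and 689 CPM in co-culture, above all 3 libraries alone, and its replicate 1 was not set apart in CPM. In TPM it was at 292, 368 and 396 in co-culture and at 213, 296 and 317 alone. There replicate 1 was lowest in both groups, the ranges overlapped, and limma on log2(TPM + 1) gave an adjusted p of 0.579. In edgeR the Tie1 log2 fold change was 0.35 (SE 0.12, adjusted p = 0.269) without the block and 0.35 (SE 0.04, adjusted p = 0.000308) with it. Vegfc was at 13.6, 12.4 and 10.8 CPM, also above all 3 alone, at 0.44 (SE 0.20, adjusted p = 0.395) without and 0.45 (SE 0.11, adjusted p = 0.0115) with the block. Pgf, Tie1 and Vegfc were the genes whose CPM ranges did not overlap, against 21.5% of all genes tested.

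The other called receptors overlapped between the groups because replicate 1 was low in both. Tek was at 156, 249 and 269 CPM in co-culture, with pair ratios of 1.37, 1.31 and 1.34. With the block its log2 fold change was 0.39 (SE 0.04, adjusted p = 0.000191), and without it 0.39 (SE 0.29, adjusted p = 0.72). Kdr was at 680, 1149 and 1209 CPM, with pair ratios of 1.29, 1.17 and 1.14 and a blocked log2 fold change of 0.22 (SE 0.05, adjusted p = 0.00558; 0.925 unblocked). Flt4 was at 529, 787 and 788 CPM, with pair ratios of 1.24, 1.20 and 1.17 and a blocked log2 fold change of 0.23 (SE 0.04, adjusted p = 0.00298; 0.855 unblocked).

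Flt1 was the receptor that moved the other way. It was at 83.5, 141 and 153 CPM in co-culture, with pair ratios of 0.846, 0.877 and 0.883 and a blocked log2 fold change of -0.24 (SE 0.05, adjusted p = 0.00462; 0.902 unblocked). Vegfb, one of its ligands, was at 77.0, 49.97 and 49.2 CPM, with pair ratios of 0.796, 0.795 and 0.880 and a blocked log2 fold change of -0.32 (SE 0.06, adjusted p = 0.00309; 0.803 unblocked). So Flt1 and both ligands that bind it and not Kdr were among the genes called lower in co-cultured LSECs with the block. Angpt2, at 1284, 1647.5 and 1653 CPM, did not pass in any fit (blocked log2 fold change -0.09, SE 0.05, adjusted p = 0.185). Nor did Vegfa, at 18.1, 20.2 and 20.5 CPM (blocked -0.10, SE 0.08, adjusted p = 0.382).

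**Figure D3:**
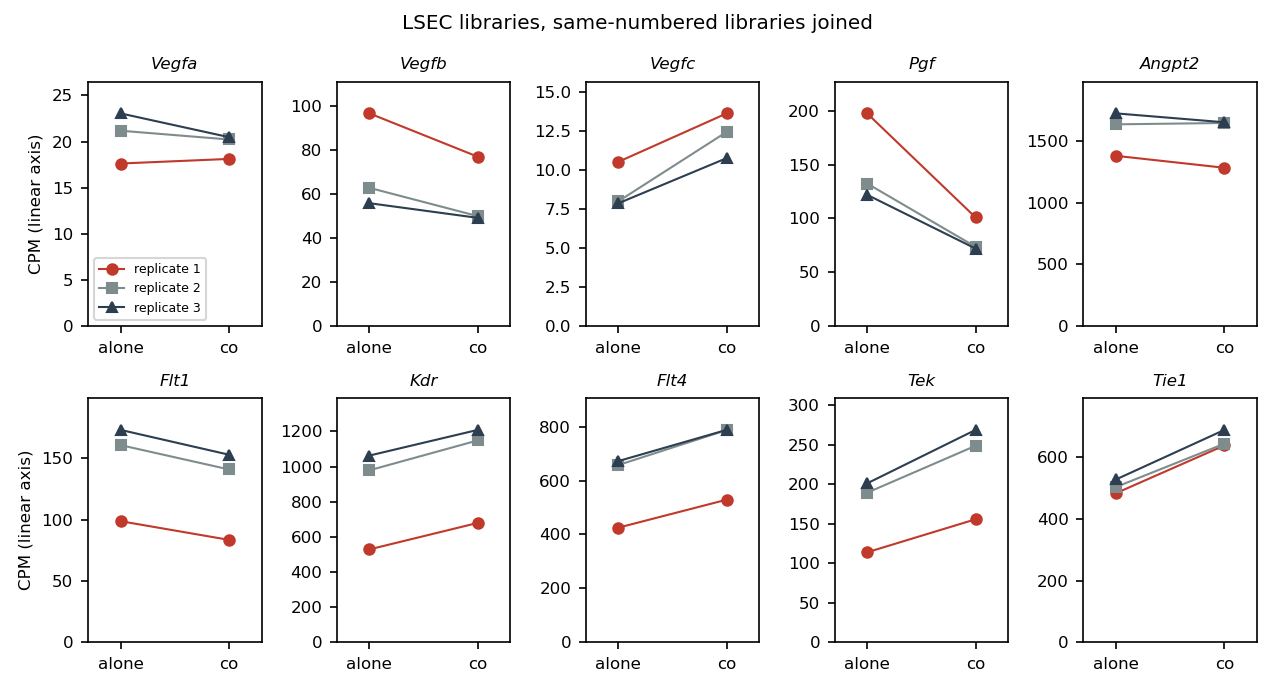
CPM (linear axes from 0) of each gene in LSECs alone and in co-culture, with same-numbered libraries joined by a line (circles replicate 1, squares replicate 2, triangles replicate 3). The 3 lines slope the same way for the 8 genes called with the replicate block, which tests this difference within pairs. Pgf drops from between 122 and 198 to between 71.9 and 101 CPM, and replicate 1 lies apart for most genes.

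Ratios of 2 genes within a library compare them in the same RNA. Kdr over Flt1, in TPM, was 6.11, 6.91 and 6.9998 in LSECs alone and 9.24, 9.31 and 9.01 in co-culture, so the 2 sets did not overlap. Angpt2 over Tek was 16.01, 11.6 and 11.5 alone and 10.9, 8.92 and 8.35 in co-culture, also without overlap. Tie1 over Tek was 5.15, 3.29 and 3.23 alone and 4.97, 3.20 and 3.19 in co-culture, which overlapped. Pgf over Vegfa was 23.8, 12.7 and 11.0 alone and 11.2, 7.33 and 7.22 in co-culture, with replicate 1 of the co-culture inside the range alone. The 2 genes of a pair were chosen with their values known, and the smallest exact permutation p for 3 against 3 libraries is 0.1.

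The order by TPM in co-cultured LSECs was led again by Angpt2 (900 ± 227 TPM), Kdr (363 ± 139), Tie1 (352 ± 54.2) and Flt4 (253 ± 80.6). Pgf (99.8 ± 4.75), Tek (99.3 ± 35.5) and Vegfb (95.7 ± 12.3) followed with overlapping ranges, so that Pgf stood beside Tek instead of above it. Flt1 (39.6 ± 15.4), Vegfc (13.4 ± 1.07) and Vegfa (12.0 ± 2.26) were lowest, with Vegfc and Vegfa overlapping.

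**Figure D4:**
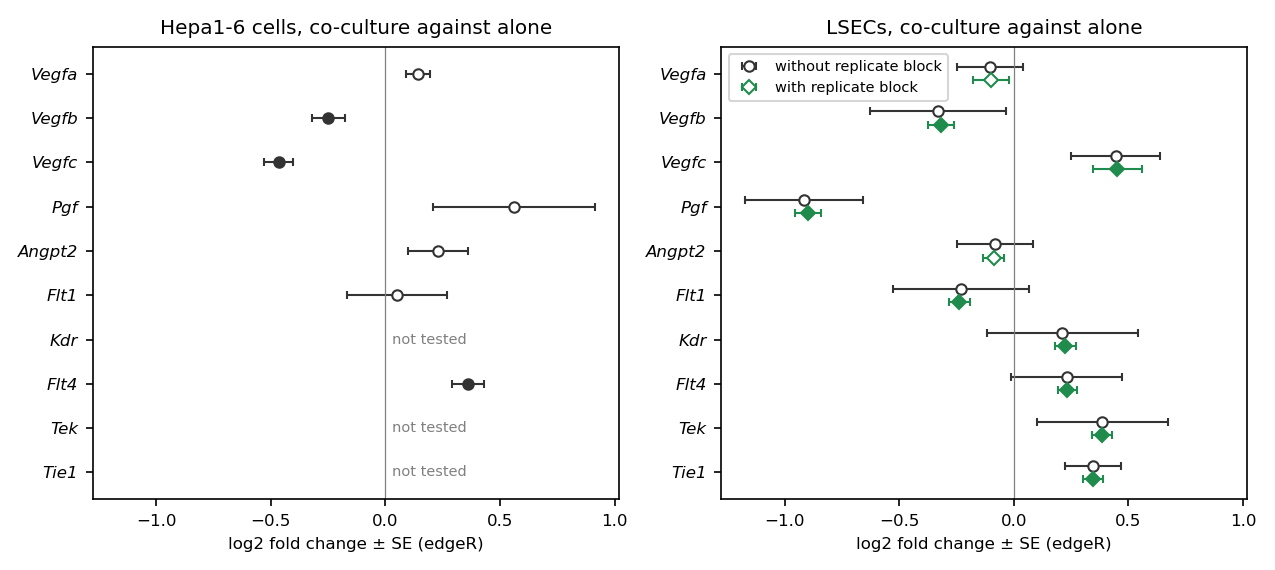
Log2 fold change of co-culture against alone with its SE (x axis) for each gene, in Hepa1-6 cells (left) and in LSECs (right, circles without and diamonds with the replicate block); filled symbols passed an adjusted p of 0.05. The LSEC estimates barely move with the block but their SEs shrink, for Pgf from 0.26 to 0.06.

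Around these genes in LSECs, calls without the block were few, and the list counts stand beside 3.09% of all genes called without the block and 33.3% with it (16.7% higher and 16.6% lower). The unblocked calls of Mmp9 and Cav1 held with any 1 library left out. Those of Dok2, Ptgs2 and Tnfaip3 held in 2 of 6 such fits, those of Mcam, Spry4 and Sphk1 in 1 of 6, and those of Egr1, Ccn2 and Ccng2 in 0 of 6 (adjusted p of 0.0557 to 0.246 for these 3 genes, edgeR). Each of these genes passed with the block. Of 15 tested genes of ligand processing and matrix binding, 1 rose and 1 fell without the block (5 and 4 with it). Mmp9, a protease that frees matrix-bound VEGF, rose by 6.60 on the log2 scale (SE 0.24, adjusted p = 0.000426), from 0.859 ± 0.118 to 86.2 ± 14.8 CPM. Ccn2, a matrix protein that binds VEGF, fell by 0.69 (SE 0.13, adjusted p = 0.0455). Among 16 trafficking genes and phosphatases, the caveolar protein Cav1 fell by 1.69 (SE 0.15, adjusted p = 0.00349), and 8 rose and 3 fell with the block.

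Of 25 tested VEGF targets, 3 rose and 2 fell without the block, and 9 rose and 9 fell with it. Ptgs2, the inducible prostaglandin synthase, rose by 3.83 (SE 0.47, adjusted p = 0.0115), the NF-kB inhibitor Tnfaip3 by 1.60 (SE 0.25, adjusted p = 0.0284) and the transcription factor Egr1 by 0.73 (SE 0.14, adjusted p = 0.0463). Spry4, a feedback inhibitor of receptor tyrosine kinases, fell by 1.25 (SE 0.20, adjusted p = 0.0297). These are edgeR values, and the list holds genes that other stimuli also induce. Of 32 signalling genes 1 rose (Dok2, 2.01, SE 0.31, adjusted p = 0.0262) and 1 fell (Sphk1, -1.64, SE 0.29, adjusted p = 0.0432), with 10 and 4 under the block. Dok2 is an adaptor expressed in blood cells as well as downstream of Tek.

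Of 15 tested other ligands, receptors and co-receptors, 1 fell without the block, the endothelial adhesion molecule Mcam (-0.72, SE 0.12, adjusted p = 0.0293), and 6 rose and 2 fell with it. The co-receptors Nrp1 and Nrp2, named here for their role, stood at 589 ± 132 and 1629 ± 546 CPM in co-culture, with blocked log2 fold changes of 0.42 (SE 0.04, adjusted p = 0.000103) and 0.53 (SE 0.04, adjusted p = 2.41e-05), and 0.551 and 0.697 as adjusted p without the block. Ptprb, at 964 ± 376 CPM, did not pass in either fit. Of 16 FOXO1 and Tie2 pathway genes, 1 rose without the block (Ccng2, 0.98, SE 0.18, adjusted p = 0.0463). Of 20 hypoxia genes and of 27 transcription factors none passed without the block; with it 7 and 11 rose and 1 and 2 fell.

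Whether co-culture acts differently on the 2 cells was asked by the interaction test over all 12 libraries. Vegfc was the 1 gene of the 10 that passed (edgeR, against 2.35% of 17346 genes): it fell in Hepa1-6 cells and was higher in LSECs, a difference of 0.95 on the log2 scale (SE 0.19, adjusted p = 0.0294). The adjusted p rose to as much as 0.0965 with 1 library left out, and the call held in 3 of 12 such fits. Pgf differed by -1.44 (SE 0.37, adjusted p = 0.0873), and by the same amount with an adjusted p of 0.00383 under the block. Vegfc and Pgf both passed with the block (17.3% of all genes called), with LSEC replicates 2 and 3 only (18.8%), in DESeq2 (7%) and in limma on TPM (4.9%). That block paired the Hepa1-6 libraries by number too, although these did not correlate above the limit of 0.1. For Kdr, Tek and Tie1 the Hepa1-6 counts were too few for the test to be read. Flt4 moved upward in both cells, and its interaction was -0.09 (SE 0.28, adjusted p = 1.0).

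Isoforms were read from transcript counts. Full-length Flt1 held most of the gene's counts in LSECs and a smaller share in Hepa1-6 cells. The share outside the full-length transcript, most of it the truncated transcript, was 19.8%, 20.1% and 19.1% in LSECs alone and 18.6%, 17.3% and 18.6% in co-culture. In Hepa1-6 cells it was 58.3%, 43.5% and 41.6% alone and 65.3%, 59.5% and 70.8% in co-culture, on 49 to 96 Flt1 counts per library, and Wilson 95% intervals run from 31.9% to 79.0% across these libraries. All LSEC libraries lay below all Hepa1-6 libraries, and 2 groups of 3 libraries cannot reach an exact two-sided permutation p below 0.1, which each of these comparisons gave. With only the 2 curated transcripts, a grouping added after the table was seen, the shares were 47.8 ± 9.16% and 63.7 ± 6.30% in Hepa1-6 cells, and 19.1 ± 0.400% and 17.5 ± 0.737% in LSECs.

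**Figure D5:**
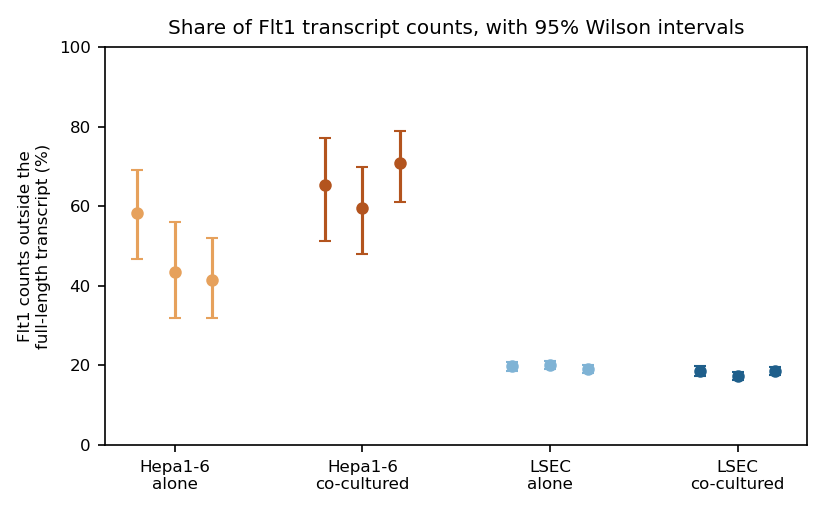
Share of Flt1 transcript counts outside the full-length transcript (y axis, percent) in each library, with 95% Wilson intervals. LSEC libraries lie between 17.3% and 20.1%; the Hepa1-6 libraries lie higher, with wide intervals because they hold 49 to 96 Flt1 counts.

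The grouping of Vegfa transcripts by block was chosen after the table was seen, and its shares overlapped between co-culture and the cells alone. Vegfa transcripts without the shorter block held 47.9 ± 9.85% of counts in Hepa1-6 cells alone and 60.4 ± 5.46% in co-culture, with overlapping libraries (exact permutation p = 0.3, two-sided, n = 3 each). Those without both blocks held 36.0 ± 7.27% and 22.3 ± 5.99% (exact p = 0.2), and in LSECs 35.7 ± 7.26% and 32.1 ± 6.97% (exact p = 0.5). The shorter Vegfb coding form of 188 codons held 36.6 ± 2.95% in LSECs alone and 36.8 ± 1.58% in co-culture (exact p = 1.0). Pgf variant 1 held 84.5 ± 5.71% in LSECs alone and 70.7 ± 7.50% in co-culture (exact p = 0.2). Some single transcripts had shares that did not overlap. A Vegfa transcript labelled variant 3 held 18.0% to 29.0% of counts in Hepa1-6 cells alone and 9.21% to 17.3% in co-culture. The predicted Pgf variant X1 held 4.28% to 10.4% in LSECs alone and 11.75% to 17.8% in co-culture. These were picked after their values were seen and carry no test. Another Vegfa transcript labelled variant 3 overlapped, at 8.22% to 12.5% in Hepa1-6 cells alone and 5.17% to 8.61% in co-culture. In the transcript tests (edgeR), none of 18 Hepa1-6 and none of 29 LSEC transcripts passed, with 3 and 2 at an unadjusted p under 0.05; 0.0914% and 0.0744% of all transcripts passed. Between the cells alone, 16 of 26 transcripts passed, against 25.8% of all, and 3 with replicate number as a block, against 1.95%. That block joins LSEC and Hepa1-6 libraries by number, and nothing in the labels links them.

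Genes of like profile were those with the smallest root mean square difference of centred log2(CPM + 0.5) over the 12 libraries, among 11238 genes. Tek was nearest to Slfn5 (0.0784), Shank3 (0.105) and Fgd5 (0.107), Tie1 to Ehd3 (0.134), Aqp1 and Oit3, and Kdr to Adgrl4 (0.195), Mmrn2 and Pecam1. Angpt2 was nearest to Apln (0.158), Gja1 and Rhoj, and Flt1 to Mamld1 (0.133), Col4a1 and Tnc. Vegfa was nearest to Fblim1 (0.0645), Pi4k2b and Pbx3, Vegfb to Jund, Atp6v0b and Dtnbp1, Vegfc to COX3, Bzw2 and Mtmr11, Pgf to Fcna, Gde1 and Lxn, and Flt4 to Zfp287, Snrk and Dock6. These are descriptions over libraries that share the gap between the 2 cells and the replicate 1 pattern.

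Promoters of 9 of the 10 genes were matched by symbol in the RefSeq promoter table (GRCm38.p6). The 250 bases before that table's own start site (the first listed where a gene has 2, as for Vegfa and Pgf) are printed for the 3 receptor genes Kdr, Tek and Tie1, which were at or near 0 in Hepa1-6 cells and higher in co-cultured LSECs with the block, and for Flt1, which was lower there. Capitals mark GGAA on either strand, the core that ETS factors bind, a motif known from endothelial promoters. It occurred in 93.4% of 32851 promoters of that length, with a median of 3 matches. Tie1 had 7 (3.82% of promoters had as many or more), Kdr and Flt1 had 4 each (33.4%) and Tek had 2 (76.8%). The hypoxia core ACGTG, on either strand, occurred in 16.6% of promoters and in none of the 9. The stretches are chr5:75978456-75978705 (minus), chr4:94739039-94739288 (plus), chr4:118489850-118490099 (minus) and chr5:147726012-147726261 (minus) in the order printed. Compared with the gene spans on mm10 above, which reach to the outermost transcript, the Kdr and Flt1 stretches lie inside the span, the Tek stretch lies mostly inside it, and the Tie1 stretch lies outside it. A match is a description of letters in this window only.
Kdr promoter: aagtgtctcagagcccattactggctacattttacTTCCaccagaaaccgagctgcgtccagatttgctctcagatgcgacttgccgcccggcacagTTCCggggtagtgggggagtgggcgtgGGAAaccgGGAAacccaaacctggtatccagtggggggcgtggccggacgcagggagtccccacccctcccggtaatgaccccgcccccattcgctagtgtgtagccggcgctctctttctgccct
Tek promoter: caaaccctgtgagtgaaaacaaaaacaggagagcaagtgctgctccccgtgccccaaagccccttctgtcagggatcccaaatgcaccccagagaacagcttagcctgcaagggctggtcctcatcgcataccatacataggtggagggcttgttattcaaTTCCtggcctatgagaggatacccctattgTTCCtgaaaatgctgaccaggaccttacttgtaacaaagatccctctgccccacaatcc
Tie1 promoter: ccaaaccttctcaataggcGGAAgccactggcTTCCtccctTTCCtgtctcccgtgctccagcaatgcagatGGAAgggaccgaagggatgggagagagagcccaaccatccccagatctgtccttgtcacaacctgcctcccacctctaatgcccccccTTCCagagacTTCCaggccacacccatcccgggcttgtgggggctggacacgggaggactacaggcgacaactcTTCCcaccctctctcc
Flt1 promoter: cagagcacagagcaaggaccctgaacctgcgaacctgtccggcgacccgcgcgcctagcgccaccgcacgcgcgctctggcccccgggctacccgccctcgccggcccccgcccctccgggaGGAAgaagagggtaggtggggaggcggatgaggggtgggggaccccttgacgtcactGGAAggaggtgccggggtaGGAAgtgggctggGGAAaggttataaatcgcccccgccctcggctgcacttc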

How the data were processed

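A stranded mRNA kit, 1 μg of total RNA and inserts of 200 to 400 bp were used, per the labels' protocols. HISAT2 alignment and StringTie quantification on mm10 are named in the submitters' processing notes; versions, annotation release and strand setting are not given in the sources used here. Per the file headers, the deposited gene and transcript tables hold an estimated count (expected count) per library, already whole numbers, with the authors' TPM and FPKM values and, per transcript, a length and locus. FPKM was not used, and the authors' TPM served for levels between genes and for 1 alternative.

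Genes were matched by symbol; 45679 of 45777 gene numbers have an entry in RefSeq GRCm38.p6. Each comparison was fitted on its own libraries with edgeR 4.0.16 in R 4.3.3 (filterByExpr, TMM, robust quasi-likelihood F-test, Benjamini-Hochberg adjustment over all genes at 0.05), and the interaction on all 12. Each SE printed for edgeR is the absolute log2 fold change divided by the square root of the test's F statistic. DESeq2 1.42.0 and limma 3.58.1 were alternatives. CPM values use TMM library sizes. Transcript shares were compared by exact two-sided permutation tests (scipy 1.17.1). The scripts were tested on simulated data. The members and lists were chosen with earlier results of these data known. From each other pathway list up to 4 genes with the smallest p were named, and transcripts holding at least 10% of their gene's counts in any library; Nrp1, Nrp2, Ptprb, Angpt1, Angpt4 and Vegfd were added for their role.

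Replicate numbers come from the titles. Deviations from group means of same-numbered LSEC libraries correlated at 0.75, 0.423 and 0.461 over 15256 genes, all above the limit of 0.1; crossing numbers 2 and 3 gave similar values (0.473 and 0.4). By that limit LSEC results are given with the block, but these values do not show that numbers 2 and 3 are matched between conditions. For Hepa1-6 the values were 0.012, -0.034 and -0.051, so Hepa1-6 results are given mainly without the block. Where the block was used, in Hepa1-6 cells and in the interaction, it paired those libraries by number all the same.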

Additional observations from a re-analysis of the deposited data

Results flagged for a closer look

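The co-culture difference of Vegfc went opposite ways in the 2 cells, and the test of that difference flagged it. On the log2 scale the difference of LSECs minus Hepa1-6 cells was 0.948 (edgeR interaction, SE 0.193, adjusted p = 0.0294). All 3 Hepa1-6 co-culture libraries lay below the 3 alone, and all 3 LSEC co-culture libraries lay above the 3 alone. Ranges were apart for 30.7% of all genes in Hepa1-6 cells and 21.5% in LSECs. The LSEC difference itself did not pass without the replicate block (edgeR, adjusted p = 0.395). The interaction call held in 3 of 12 fits with 1 library left out, with adjusted p up to 0.0965.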

How the results depend on the processing

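With the low-count filter removed or RLE size factors in place of TMM, the number of the 10 genes called did not change in any comparison, and in the comparison of the cells alone all 10 stayed called under every alternative. In Hepa1-6 cells limma on log2(TPM + 1) called 1251 genes and 1 of the 10. In LSECs, DESeq2 called 1301 genes and 2 of the 10, limma 1 of the 10, the fit with the replicate block 5082 and 8, and replicates 2 and 3 only 5559 and 8; leaving out 1 library gave 146 to 490 genes, and 0 of the 10, against 471 and 0. In the interaction, DESeq2 called 1215 genes, limma 850, the replicate block 3008 and replicates 2 and 3 only 3305, each with 2 of the 10; leaving out 1 library gave 216 to 726 genes and 0 to 2 of the 10. With the replicate block 3 transcripts of the 10 genes differed between the cells alone, against 16, though nothing links LSEC and Hepa1-6 libraries of the same number there. The block changed no other call of the 10 genes in Hepa1-6 cells. The cause of these shifts was not tested.

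With 1 library left out, some estimates that were near 0 or rested on few counts changed sign. In Hepa1-6 cells Flt1 ran from -0.108 to 0.188 (-0.094 without co-culture replicate 3). In LSECs Angpt2 ran from -0.155 to 0.024, the last without co-culture replicate 1, and Kdr from -0.03, without replicate 1 alone, to 0.427. In the interaction Vegfb ran from -0.288 to 0.231, Flt4 from -0.277 to 0.076, Kdr from -3.843 to 0.24 and Tie1 from -2.265 to 3.441, and Kdr was 0.228 in limma on TPM. For Kdr and Tie1 the Hepa1-6 counts were too few for these interaction estimates to be read. Depth limits Kdr, Tek, Tie1, Flt1 and Pgf in Hepa1-6 cells, and the number of libraries limits every exact test.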
